A study of Homo sapiens with 2 samples.

Results

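The transcripts described here encode subunits of the proteasome core particle, and their poly(A) tails and read numbers were followed in HCT116 (a line from a human colon cancer), whose cytoplasmic poly(A)-binding proteins were replaced by a transgene. The members were taken as poly(A) sites that lie, on hg19 coordinates, inside the windows of 8 genes: PSMA2, PSMA3, PSMA4, PSMA6, PSMA7, PSMB1, PSMB4 and PSMB6. Of these 8 genes, 6 had a site in the tables of both libraries, with 1 site each, out of 9004 sites in either table. No site lay in the windows of PSMA2 and PSMA6, both α subunits, so no value is given for them. The 6 sites all had at least 10 reads in every subsample, and were 6 of the 914 sites that did.

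All cells carried a degron tag (mAID) on the endogenous PABPC1 and PABPC4, which lets indole-3-acetic acid (IAA, an auxin) remove both proteins, and transposon insertions, in several copies, of a transgene. The lines were polyclonal. The transgene was PABPC1 itself or PABP1212, a PABPC1 with a second copy of its RRM1 and RRM2 domains. Cells were given 1 μg/mL doxycycline and 0.5 mM IAA for 13 days and sorted by transgene expression into 4 gates, each with 25% of the cells, called here the lowest, second-lowest, second-highest and highest level, and a subsample without replacement, called uninduced, was sequenced beside them. Each transgene has 1 nanopore direct RNA library with 5 barcoded subsamples, so the transgene cannot be told apart from the library, nor the level from its set of barcodes, and uninduced cells also lack the drugs and the sort. The degron acts on the protein, so read numbers do not check it, and the sites carry no gene names from which markers of HCT116 could be read.

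The core particle is the barrel in which the proteasome cuts proteins tagged for destruction. Its outer rings are built of α subunits, which form the gate and the docking surface for the regulatory particle, and its inner rings of β subunits, some of which carry the cutting sites. The subunits are assembled together into the barrel, and their genes share control by the transcription factor NFE2L1. A poly(A) tail is bound by PABPC proteins in the cytoplasm, which protects it and links it to translation, and its shortening by deadenylases is a usual first step of mRNA decay.

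Annotated 3′ ends of these genes are shown because each site was named by its place alone, and they need not be the ends that carry the measured tails. They are the last 30 bases of the GENCODE v29 transcript (hg38) that best matched the spacing of each site to its neighbours, 5′ to 3′ on the strand of the gene, with the poly(A) signal in capitals. The intervals on hg38 are chr14:58271978-58272007 (+) for PSMA3, chr15:78549175-78549204 (+) for PSMA4, chr20:62136735-62136764 (−) for PSMA7, chr6:170535117-170535146 (−) for PSMB1, chr1:151401915-151401944 (+) for PSMB4 and chr17:4798473-4798502 (+) for PSMB6.
PSMA3: aattttcATTAAAtttttgtcttataacta
PSMA4: aaatttggaaaatggaaatgaaggAATAAA
PSMA7: gagtgtcctacAATAAActtccgtattttt
PSMB1: tgtttATTAAAagagaaacctgaagtactc
PSMB4: agtaAATAAAttcttcaaaatgcttgctga
PSMB6: ttAATAAAgtttgtcacagagaatctttgt

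These ends of coding transcripts close the 3′ UTR, and each held 1 signal. PSMA4, PSMA7, PSMB4 and PSMB6 had AATAAA, and PSMA3 and PSMB1 had the variant ATTAAA. Only these 2 motifs were searched, on the transcript strand. Of 48058 distinct ends of coding transcripts in the same annotation, 48.6% held either motif in the same window, 38.8% AATAAA and 11.1% ATTAAA. The signal ended 13 to 22 bases before the transcript end in 5 of the 6 and at the end itself in PSMA4, whose annotated end therefore need not be the cleavage site.

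The deposited sites lie at chr14:58738722 (+) for PSMA3, chr15:78841546 (+) for PSMA4, chr20:60711748 (−) for PSMA7, chr6:170844208 (−) for PSMB1, chr1:151374413 (+) for PSMB4 and chr17:4701790 (+) for PSMB6. The submitters' processing notes name hg38, but 188 of 8995 sites with reads (2.09%) lay within 10 nt of a transcript end of that build, and the names rest on the hg19 windows. No hg19 annotation was used here. As a check by spacing, neighbouring sites within 1000000 nt (at most 20 a gene) were compared with the distances between annotated transcript ends. At the best shift of up to 100 nt, 13 of 20 neighbours fell on an end for PSMB4, 11 of 20 for PSMB6 and 8 of 16 for PSMA4. The counts were 3 of 6 for PSMA3, 3 of 10 for PSMB1 and 3 of 14 for PSMA7, so PSMA7 and PSMB1 had the lowest shares. How many matches an unrelated position would reach at its best shift was not counted, so the check does not settle any of the names. By this spacing the PSMA7 site lay 41 nt past the annotated end.

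Depth ranged from 65862 reads in the PABPC1 lowest level to 630986 in the PABP1212 second-highest level. Over all 10 subsamples the sites held 975 reads for PSMA3, 1092 for PSMA4, 1471 for PSMA7, 1657 for PSMB1, 1356 for PSMB4 and 845 for PSMB6, which placed them between ranks 191 and 425 of 8995 sites. A member had 21 to 133 reads in a PABPC1 subsample and 39 to 454 in a PABP1212 subsample, so single values are less certain with PABPC1. Reads of 1 subsample are not replicates: the 95% intervals below, exact order-statistic intervals for medians, Clopper-Pearson for shares and Poisson for read numbers, cover counting error only.

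With PABP1212 all 6 transcripts had their longest median tail at the lowest level, and PSMA3 was called for a shortening trend. The median of the members' median tails was 89.5 nt in uninduced cells. By rising level it was 127.5, 99.5, 77.25 and 80 nt. The highest level minus the lowest gave −30 nt (PSMA7) to −58 nt (PSMA3), with a median of −45 nt. Of all 914 sites, 97.8% were shorter at the highest level than at the lowest, with a median change of −39 nt, so 6 of 6 is the share that the background gives. Against the second-highest level, 4 members were longer at the highest and 2 shorter, with a median change of 2.75 nt. Of all sites 54.0% were longer and 42.2% shorter, with a median of 1 nt.

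PSMA3, an α subunit whose C-terminal end also binds the cell cycle inhibitor p21, fell most. Its median tail with PABP1212 was 95 nt (82 to 107) in uninduced cells, and by rising level it was first 125 nt (94 to 165) and 86 nt (74 to 102), then 68 nt (57 to 77) and 67 nt (58 to 77). Both upper levels lay below uninduced, with intervals that did not overlap its interval. Tails under 30 nt were 6.82% (1.43 to 18.7) of PSMA3 reads at the lowest level and 22.3% (17.4 to 27.9) at the highest. They were 12.3% (6.08 to 21.5) in uninduced cells, and these intervals overlapped. Among the 914 sites the PSMA3 median stood at percentile 57.4 at the lowest level and 13.2 at the highest.

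PSMA4, an α subunit whose yeast counterpart closes the gate, kept longer tails than most sites at every PABP1212 level. Its medians were 101 nt (89 to 118) in uninduced cells, 138.5 nt (120 to 171) and 111 nt (94 to 133) at the lower levels, and 85 nt (79 to 91) and 96 nt (89 to 102) at the upper ones. It had the longest median of the 6 in all 5 PABP1212 subsamples, at percentiles 65.1 to 82.2 of all sites. Its share under 30 nt was 5.78% at the highest level, the lowest of the 6 there, beside 22.3% for PSMA3.

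PSMA7, an α subunit that can stand in for PSMA4 in an alternative barrel, had the smallest difference between these levels. Its PABP1212 medians were 75 nt (62 to 91) in uninduced cells, 111 nt (84 to 145) and 100 nt (76 to 114) at the lower levels, and 84 nt (72 to 95) and 81 nt (73 to 89) at the upper ones. It was the member with all 4 levels above uninduced, though the interval at each level overlapped that of uninduced cells.

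The β subunits also had their longest medians at the lowest level. For PSMB1, a β subunit without a cutting site, they were 87 nt (76 to 97) in uninduced cells, 132 nt (118 to 169) and 99 nt (87 to 116) at the lower levels, and 82 nt (75 to 89) and 84.5 nt (77 to 91) at the upper ones. For PSMB4, also without a cutting site, they were 85 nt (77 to 91) in uninduced cells, then 130 nt (106 to 163) and 101 nt (83 to 118), and at the upper levels 71 nt (65 to 79) and 74 nt (67 to 85). Both lay above uninduced at the 2 lower levels and below it at the 2 upper ones, and for both the lowest level did not overlap uninduced. PSMB6, which carries the caspase-like cutting site and is exchanged for PSMB9 in the immunoproteasome, had 92 nt (74 to 106) in uninduced cells, then 119 nt (87 to 160) and 87.5 nt (69 to 112), and at the upper levels 72.5 nt (64 to 83) and 79 nt (71 to 88). The intervals of the highest and lowest level did not overlap for PSMA3, PSMA4, PSMB1 and PSMB4, and did for PSMA7 and, by 1 nt, PSMB6. Interval overlap was read for the members only throughout. No share over all sites stands beside it, so it does not set the members apart from other sites.

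**Figure D1:**
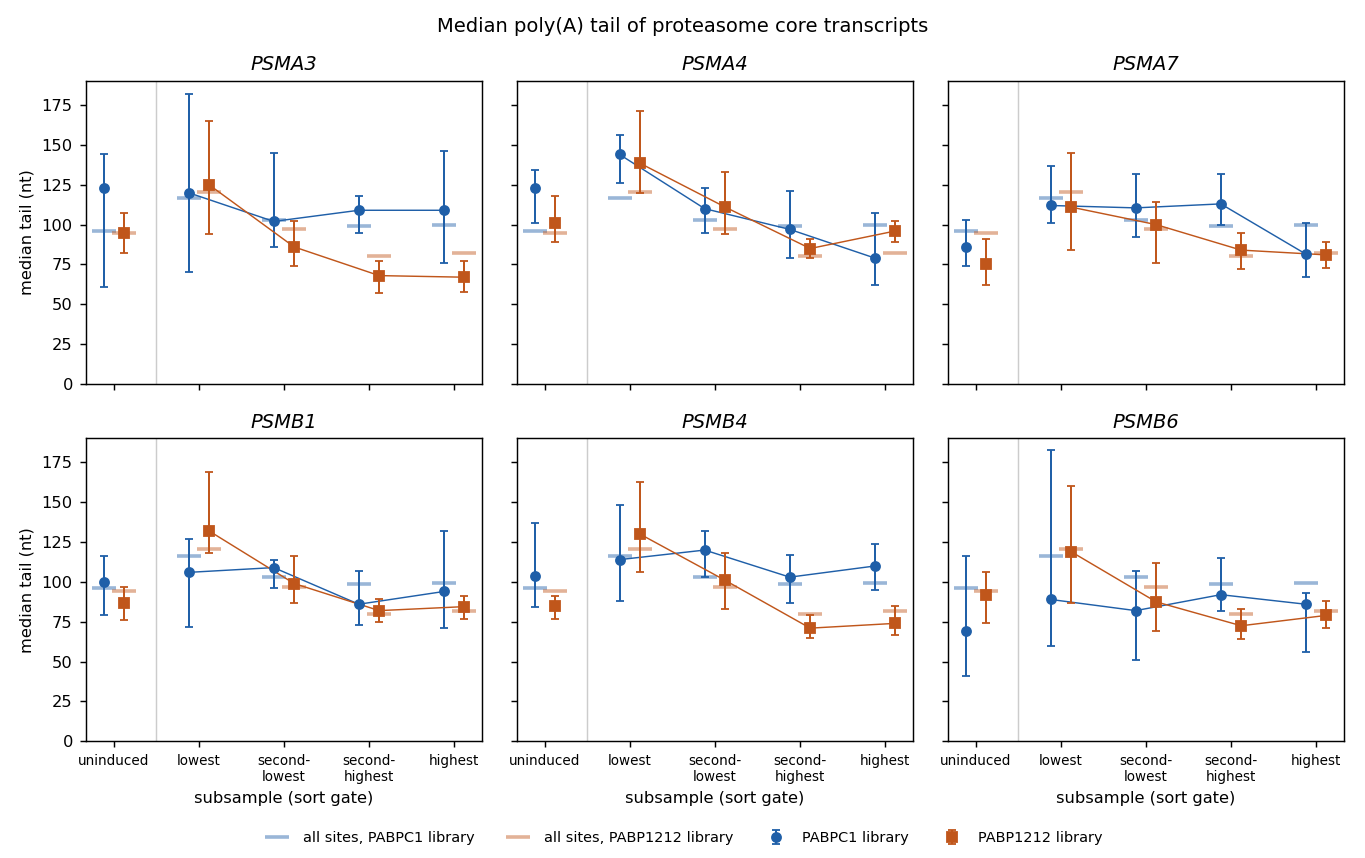
Median poly(A) tail in nt (y axis) of each proteasome core transcript in the 5 subsamples (x axis) of the PABPC1 library (blue circles) and the PABP1212 library (orange squares), with 95% order-statistic intervals over reads. Short bars mark the median over 914 sites, and lines join the 4 sorted levels. The PABP1212 points start at 111 to 138.5 nt at the lowest level and end at 67 to 96 nt at the highest, while the PABPC1 points overlap more.

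With PABPC1 none of the 6 tail trends passed the test, and the medians moved less evenly. PSMA4 had the widest range: 123 nt (101 to 134) in uninduced cells, 144 nt (126 to 156) and 110 nt (95 to 123) at the lower levels, and 97 nt (79 to 121) and 79 nt (62 to 107) at the upper ones. The highest level minus the lowest was −65 nt. It was the member whose highest and lowest intervals did not overlap. It moved from percentile 90.3 of all sites to percentile 11.1, which rests on 29 and 34 reads.

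PSMA3 had no such range with PABPC1. Its medians were 123 nt (61 to 144) in uninduced cells, 120 nt (70 to 182) and 102 nt (86 to 145) at the lower levels, and 109 nt (95 to 118) and 109 nt (76 to 146) at the upper ones, so all intervals overlapped. PSMA7 held 86 nt (74 to 103) in uninduced cells and 81.5 nt (67 to 101) at the highest level. Its other levels had, from the lowest, 112 nt (101 to 137), then 110.5 nt (92 to 132), then 113 nt (100 to 132). PSMA7 was thus long at 3 levels and back near uninduced at the highest.

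Among the β subunits, PSMB1 had 100 nt (79 to 116) in uninduced cells, 106 nt (72 to 127) and 109 nt (96 to 114) at the lower PABPC1 levels, and 86 nt (73 to 107) and 94 nt (71 to 132) at the upper ones. PSMB4 had 104 nt (84 to 137) in uninduced cells, then 114 nt (88 to 148) and 120 nt (103 to 132), and at the upper levels 103 nt (87 to 117) and 110 nt (95 to 124). PSMB6 had the shortest tails of the 6 in uninduced cells and at both lower levels, with 69 nt (41 to 116), 89 nt (60 to 183) and 82 nt (51 to 107), beside 92 nt (82 to 115) and 86 nt (56 to 93) at the upper levels. For each of these β subunits the intervals of the uninduced, lowest and highest subsample overlapped.

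Against uninduced cells, 5 of the 6 members had longer median tails at the lowest PABPC1 level, where 82.1% of all sites were longer. The median change over all 6 was 15 nt. At the highest PABPC1 level 4 of 6 were shorter than uninduced, against 43.3% of all sites, with changes from −44 nt (PSMA4) to 17 nt (PSMB6). At the highest level 6 of 6 were shorter than at the lowest, against 79.4% of sites, with a median of −11.5 nt and, for PSMB6, −3 nt. With PABP1212, 6 of 6 were longer at the lowest level, by a median of 36.75 nt, where 91% of sites were longer. At the highest PABP1212 level 5 of 6 were shorter, where 83.8% of sites were shorter, with a median change over all 6 of −8 nt. With the earlier PABP1212 comparison of the highest level with the lowest, these make 6. The members followed the direction of most sites in 5 of these 6 comparisons. In the other, PABPC1 highest against uninduced, their count of 4 shorter rests on changes as small as −4.5 nt. The middle levels are outside this tally. At the PABPC1 second-highest level 4 of 6 were shorter than uninduced, against 47.0% of sites. Uninduced cells of the 2 libraries received no drug. There, 5 of 6 medians were lower in the PABP1212 library, by 11 to 28 nt, and PSMB6 was 23 nt higher. The intervals of the 2 libraries overlapped for each member. Over all sites the uninduced median was 96 nt in the PABPC1 library and 94.5 nt in the PABP1212 library, and the share of sites that were lower was not counted.

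Short and long tails were counted to see which reads moved. Over the pooled reads of the 6, tails of 150 nt or more were most frequent at the lowest PABP1212 level, with 40.5% of reads (35.5 to 45.7). The second-lowest level had 27.3% (24.4 to 30.4), the second-highest 17.8% (16.1 to 19.6), the highest 17.9% (16.2 to 19.7) and uninduced cells 16.3% (13.6 to 19.4). At the lowest level every member had 33.3% to 43.5% of its reads in this class. Tails under 30 nt were 6.32% (4.09 to 9.25) of pooled reads at that level and 6.56% (4.79 to 8.74) in uninduced cells. The second-lowest level had 9.79% (7.91 to 12.0), the second-highest 15.3% (13.7 to 17.0) and the highest 13.9% (12.4 to 15.5). The same shares over all reads were 38.9% to 18.3% for long tails and 7.88% to 13.2% for short ones, from the lowest to the highest level.

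With PABPC1, long tails were 19.2% (14.4 to 24.9) of pooled member reads in uninduced cells, 28.7% (22.4 to 35.8) at the lowest level and 20.3% (16.1 to 25.01) at the highest. Short tails were 7.26% (4.29 to 11.4), 3.19% (1.18 to 6.82) and 5.37% (3.22 to 8.36) in the same order. These PABPC1 intervals overlap, and no test was made on shares. PSMA3 and PSMA4 each had 0 short tails at the lowest PABPC1 level, among 21 and 29 reads, which is too few to read as absence. The interquartile range of a transcript's tails was 102 to 123.5 nt at the lowest PABP1212 level, beside 64.5 to 84.25 nt in uninduced cells of that library. At the lowest PABPC1 level it ran from 35 nt (PSMA4) to 123 nt (PSMB6).

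**Figure D2:**
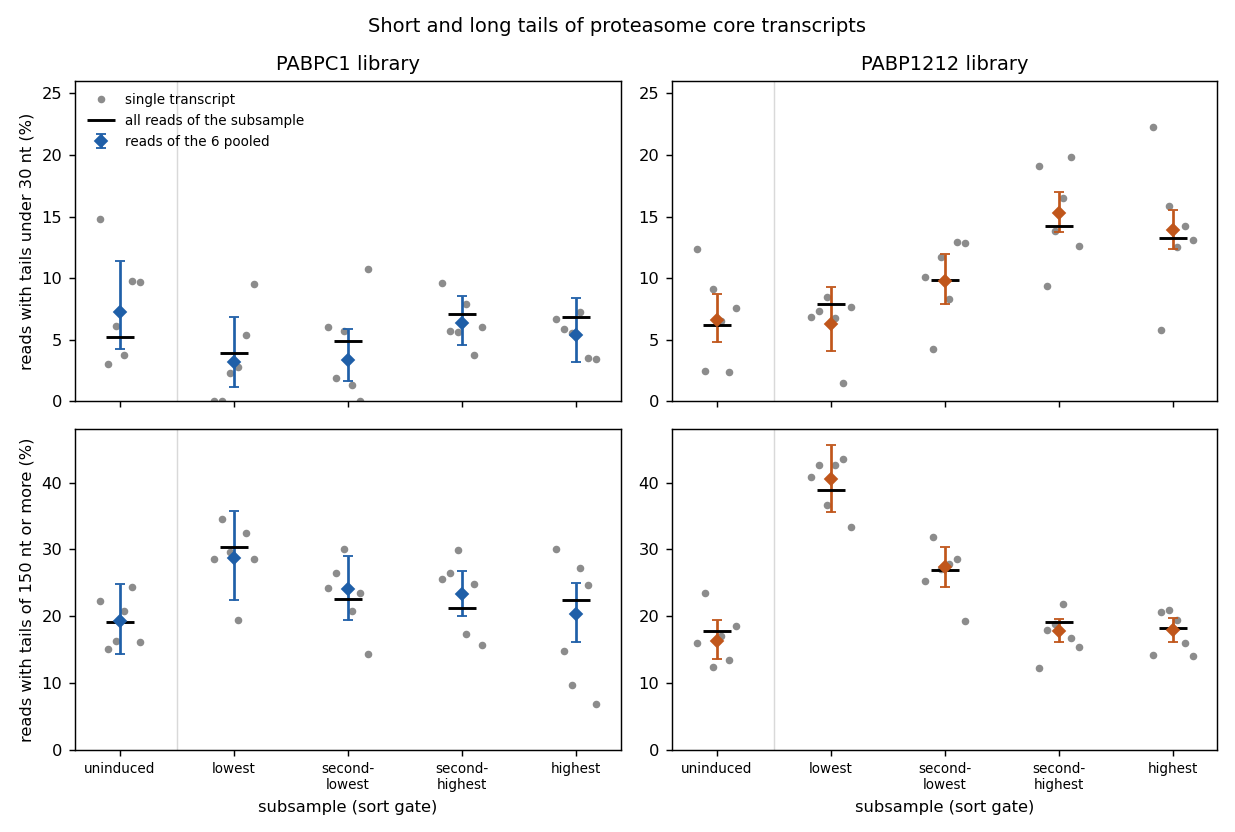
Percent of reads (y axes) with tails under 30 nt (top) and of 150 nt or more (bottom) by subsample (x axis) in the PABPC1 library (left) and the PABP1212 library (right). Grey points are single transcripts, diamonds the reads of the 6 pooled with 95% Clopper-Pearson intervals, and black bars all reads of the subsample. The pooled long share goes from 40.5% at the lowest to 17.9% at the highest PABP1212 level, and the black bars lie within the pooled intervals in all 20 pairs.

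Trends over the levels were then tested with limma, fitted to the mean of log2(nt + 1) of all 914 sites, with each subsample as 1 observation and 4 residual degrees of freedom. A trend is the change in log2(nt + 1) per level. No source says that the levels come from separate cultures, so the p-values measure the spread of these subsamples around a line, which may be technical. With PABP1212, 1 of the 6 members passed a Benjamini-Hochberg adjusted p of 0.05, against 15.2% of all sites, all 139 of them toward shorter tails. It was PSMA3, at −0.28 ± 0.08 (SE, adjusted p = 0.0179), or a fitted 0.555-fold from the lowest level to the highest on that scale. Its estimate stood at percentile 1.64 of all sites.

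The other 5 PABP1212 tail trends were below 0, as were 96.8% of those of all sites, and none of the 5 passed in limma. With subsample medians subtracted those of PSMA4, PSMA7 and PSMB6 turned to 0.0237, 0.00872 and 0.0236. Without that centring they were −0.20 (95% interval −0.37 to −0.03) for PSMB4, −0.15 (−0.29 to −0.01) for PSMB1, −0.12 (−0.25 to 0.00) for PSMA7, −0.11 (−0.26 to 0.03) for PSMA4 and −0.10 (−0.28 to 0.08) for PSMB6, with adjusted p from 0.103 to 0.346. PSMA3, PSMB1 and PSMB4 were under 0.05 without adjustment. The members' median trend was −0.14, the same as that of all sites, −0.14.

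The PSMA3 call was lost when each subsample was centred on its median over sites, so that a shift common to the sites drops out (−0.15, limma adjusted p = 0.133), and with the PABP1212 library fitted alone (−0.28, adjusted p = 0.107). The adjusted p ranged from 0.000125 to 0.279 over 20 alternatives, and the trend stayed below 0 in all. The count of 1 member was 0 without the PABP1212 lowest, the PABP1212 second-lowest or the PABPC1 highest level, 5 without the PABP1212 second-highest and 6 without the PABP1212 highest level. The share of all sites called moved with it, to 1.20%, 1.42% and 7.77% in the first 3 of these settings and to 53.6% and 72.8% in the last 2.

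With PABPC1, 0 of the 6 tail trends passed in limma, as did 0% of all sites, and 0 of 6 and 15 of 914 were under 0.05 without adjustment. They were −0.22 (−0.52 to 0.08) for PSMA4, −0.16 (−0.38 to 0.05) for PSMA7, −0.11 (−0.38 to 0.17) for PSMB1, −0.07 (−0.40 to 0.26) for PSMB6, −0.06 (−0.35 to 0.23) for PSMA3 and 0.03 (−0.24 to 0.31) for PSMB4. The members' median was −0.09, beside −0.08 over all sites. These intervals include falls as steep as the PABP1212 median trend, so the values do not show that PABPC1 leaves the tails alone.

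The 2 transgenes were compared by the difference of the trends, PABP1212 minus PABPC1. It passed for 0 of 6 members and 0% of sites in limma, with 0 of 6 and 2 of 914 under 0.05 without adjustment. It was −0.23 (−0.56 to 0.11) for PSMA3 and −0.23 (−0.56 to 0.09) for PSMB4, the lowest of the 6, and 0.11 (−0.23 to 0.44) for PSMA4, the highest. Without the PABP1212 highest level 2 members and 15.2% of sites passed. Averaged over both transgenes the tail trend was below 0 in all 6, from −0.17 (PSMA3 and PSMA4) to −0.08 (PSMB4), as it was in 95.5% of sites. Of these averaged trends 0 passed, against 3.28% of sites, with 3 of 6 under 0.05 without adjustment. With subsample medians subtracted PSMB4 and PSMB6 turned above 0 (0.02 each). The count of 0 was 6 without the PABP1212 highest level, where 61.7% of sites passed, and 4 without its second-highest, where 29.98% did.

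The mean of the 4 levels minus uninduced was tested as well. In limma it passed for 0 of 6 members and 0% of sites with PABPC1, with PABP1212 and for the difference between them, with 0 of 6 under 0.05 without adjustment in each case. Over all 914 sites these unadjusted counts were 1, 34 and 2. For PSMA7 the change was 0.34 (−0.23 to 0.91) with PABPC1 and 0.13 (−0.23 to 0.49) with PABP1212, the highest of the 6 in both. The members' medians were 0.05 and −0.12, beside 0.04 and −0.12 over all sites. With PABP1212 this mean joins levels above and below uninduced.

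Read numbers were compared as relative abundance, the reads of a site as CPM (counts scaled to 1000000 reads) after scaling each subsample by its median ratio over sites. In bulk cells, fewer cells that make a transcript and less RNA per cell cannot be told apart, and a rise is relative to the other transcripts. The 6 sites together held 2717 to 3464 CPM before scaling, lowest at the PABP1212 lowest level and highest in PABPC1 uninduced cells. Within each library the lowest level had the smallest share of the 4, at 2854 with PABPC1 and 2717 with PABP1212.

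PSMA3 rose with the level of PABPC1. Its scaled CPM was 425 (280 to 619) in uninduced cells and 300 (186 to 458), 326 (224 to 457), 487 (393 to 596) and 586 (447 to 754) by rising level. The highest level was above the lowest by a fitted 2.06-fold on the log2(CPM + 1) scale. With PABP1212 it was 420 (334 to 522) in uninduced cells and 282 (205 to 378), 380 (315 to 455), 374 (328 to 425) and 458 (404 to 517). In both libraries the lowest level was the smallest value and the highest level the largest of the 5 subsamples.

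PSMB4 also had its smallest value at the lowest level in both libraries. With PABPC1 its scaled CPM was 646 (464 to 876) in uninduced cells and 528 (372 to 728), 671 (521 to 850), 689 (577 to 816) and 830 (663 to 1026) by rising level. With PABP1212 it was 659 (549 to 784) in uninduced cells and 442 (344 to 559), 469 (397 to 552), 504 (450 to 562) and 583 (521 to 649). All 4 PABP1212 levels thus lay below uninduced, while 3 of 4 PABPC1 levels lay above it.

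PSMB6 was below uninduced at every level of both libraries. Its scaled CPM was 488 (332 to 693) in PABPC1 uninduced cells and 300 (186 to 458), 276 (184 to 399), 430 (342 to 533) and 283 (190 to 407) by rising level. With PABP1212 it was 477 (385 to 586) in uninduced cells and 250 (178 to 341), 249 (197 to 311), 352 (307 to 401) and 391 (341 to 446), so that the upper levels were nearer to uninduced than the lower ones.

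PSMA4, PSMA7 and PSMB1 differed in the order of their levels between the libraries. PSMA4 scaled CPM ran from 332 at the highest PABPC1 level to 523 at the second-lowest, but only from 435 to 488 over the PABP1212 levels. PSMA7 ran from 554 to 703 with PABPC1, the highest level being the largest, and from 455 to 656 with PABP1212. PSMB1 was below uninduced (835 and 794) at every level, with 514 to 760 with PABPC1 and 570 to 719 with PABP1212.

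**Figure D3:**
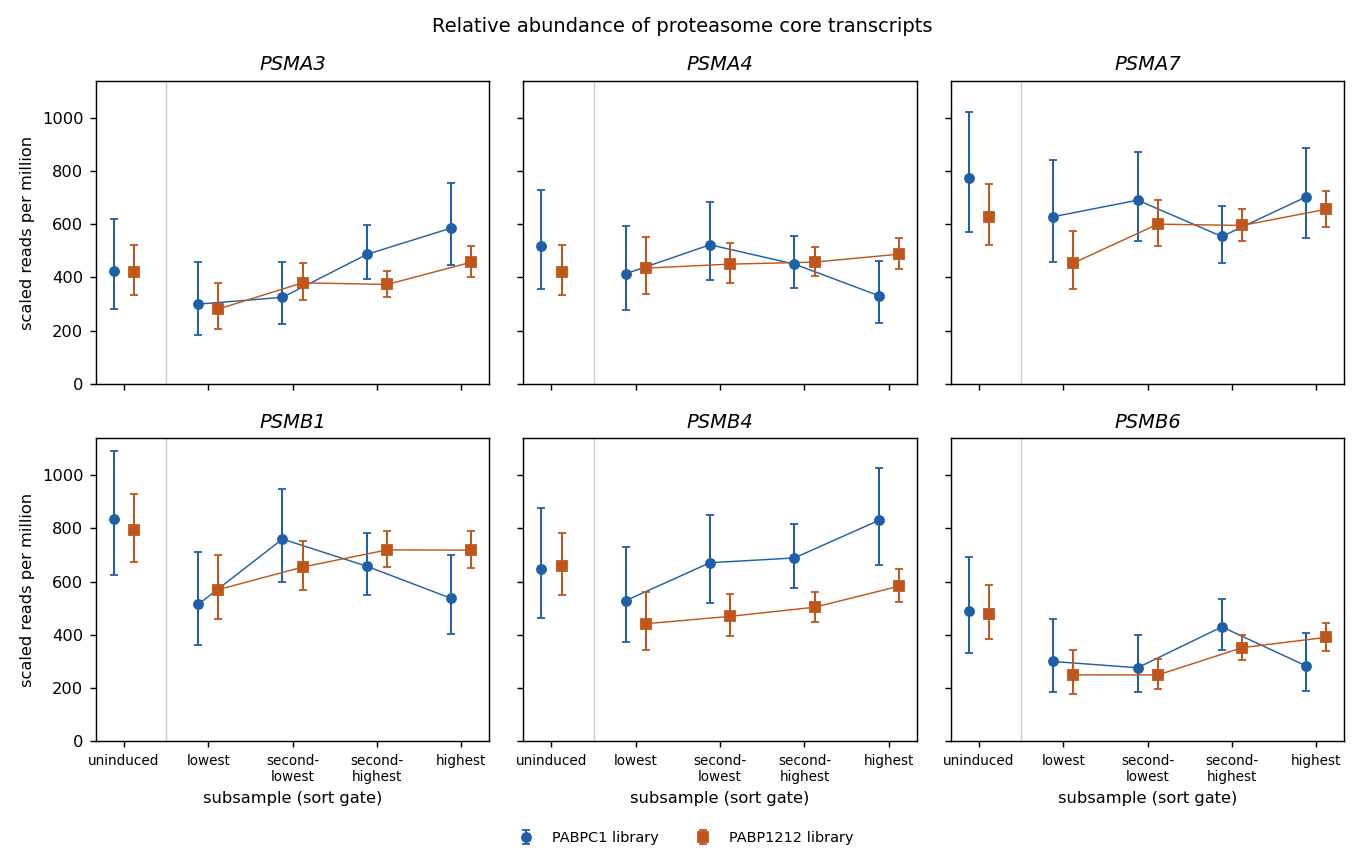
Relative abundance as scaled CPM (y axis) of each proteasome core transcript by subsample (x axis), PABPC1 library in blue circles and PABP1212 library in orange squares, with 95% Poisson intervals that cover counting error only. PSMA3 climbs from 300 to 586 over the PABPC1 levels, and PSMB6 lies below its uninduced value at each level.

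In the limma fit of log2(CPM + 1) over 801 sites with a mean of at least 50 reads, 1 of 6 members passed for the PABPC1 trend, against 13% of sites in either direction and 9.99% toward higher abundance. It was PSMA3, at 0.35 ± 0.08 per level (SE, adjusted p = 0.0217, range 0.009 to 0.138 over 18 alternatives). PSMB4 was next at 0.20 (95% interval 0.05 to 0.35, limma adjusted p = 0.077), and the others ran from −0.12 (PSMA4) to 0.04 (PSMB6). The count was 0 without the PABPC1 lowest, second-highest or highest level, where 0.749%, 1.87% and 2.12% of sites passed. It was also 0 with a mean of 10 reads (2.13% of sites), with no filter (0.0222%) and with voom weights (3.25%), and was 2 without the PABPC1 second-lowest level (28.1%).

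The PABP1212 abundance trends were above 0 in all 6, as they were in 72.9% of sites. Of these trends 0 passed in limma, against 22.2% of sites, with 2 of 6 (PSMB6 and PSMA3) under 0.05 without adjustment. They ran from 0.05 (−0.14 to 0.24) for PSMA4 to 0.24 (0.02 to 0.46) for PSMB6, and the direction of PSMA4 turned when subsamples were scaled by total reads (−0.01). With the PABP1212 library fitted alone 2 passed, as without the PABPC1 lowest level, each beside 33.5% of sites, and 1 passed without the PABPC1 second-lowest level, beside 28.8%. The members' median was 0.14, beside 0.12 over all sites.

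Averaged over both transgenes, 2 of 6 passed in limma, both higher, against 38.2% of sites in either direction and 32.2% higher. They were PSMA3 at 0.28 ± 0.06 per level (SE, adjusted p = 0.00309) and PSMB4 at 0.16 ± 0.05 (SE, adjusted p = 0.0199), and both were higher at the highest level than at the lowest in both libraries. The adjusted p ranged from 0.00135 to 0.0761 over 17 alternatives for PSMA3 and from 0.00808 to 0.143 for PSMB4. The count was 0 without the PABP1212 lowest level, where 2.37% of sites passed. It was 1 without the PABPC1 lowest level (19.1% of sites), without the PABP1212 highest level (33.3%) and with scaling by total reads (31.0%). PSMB4 was also lost without the PABPC1 highest level, where PSMB6 passed.

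The difference of the abundance trends between the transgenes passed in limma for 0 of 6 members and 0% of sites. Without adjustment 0 of 6 and 53 of 801 were under 0.05. The differences ran from −0.14 (−0.39 to 0.11) for PSMA3 to 0.20 (−0.11 to 0.51) for PSMB6. Except for PSMB4 (−0.29 to 0.15), the members' intervals include differences as large as the called PSMA3 trend with PABPC1, 0.35. The values thus do not show that the trends are equal.

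The mean of the levels minus uninduced was below 0 for abundance in 5 of 6 members with PABPC1 and 5 of 6 with PABP1212. Of all sites 60.0% and 67.7% were below 0. In limma 0 members passed, against 25.1% and 12.5% of sites. PSMB6 was lowest in both, at −0.62 (−1.17 to −0.08, adjusted p = 0.0847) with PABPC1 and −0.65 (−1.20 to −0.10, adjusted p = 0.103) with PABP1212, and was under 0.05 without adjustment in both, as was PSMB4 with PABP1212 at −0.41 (−0.79 to −0.02, adjusted p = 0.147). The median over all sites was itself −0.15 and −0.21, and moved to −0.05 and −0.04 when scaled by total reads, so the level of 0 depends on the scaling. The members' medians were −0.28 and −0.23. The difference between transgenes passed for 0 of 6, against 0.624% of sites, with 0 of 6 and 91 of 801 under 0.05 without adjustment.

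**Figure D4:**
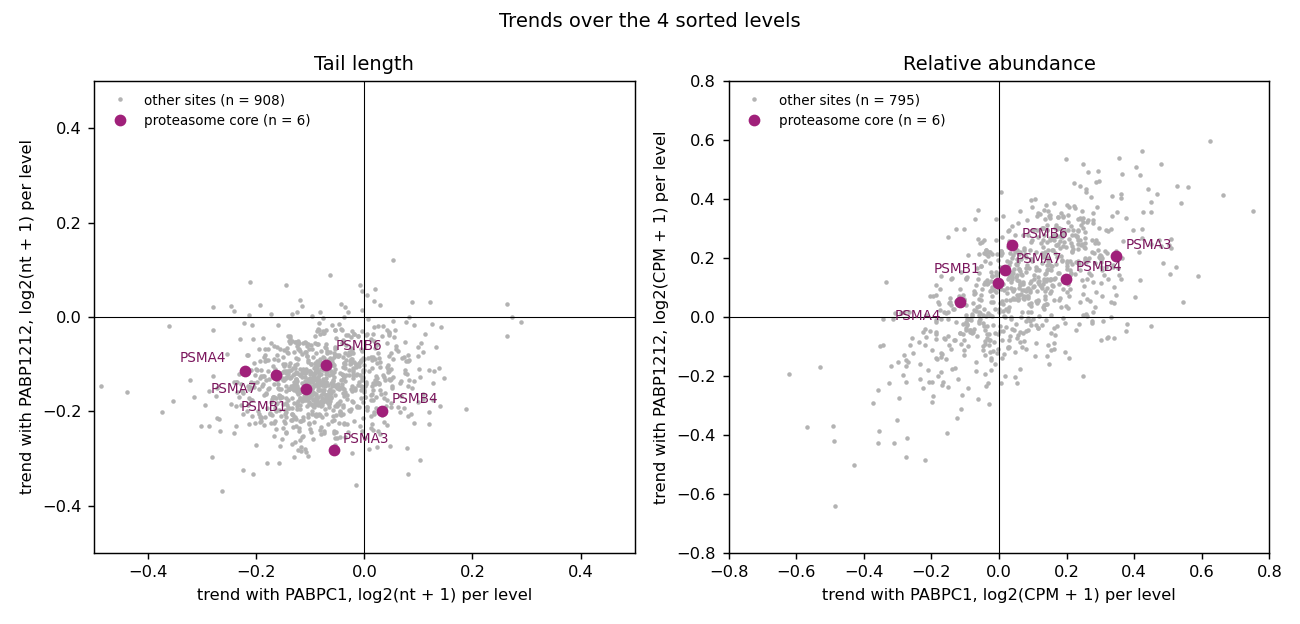
Fitted trend per level with PABPC1 (x axis) against that with PABP1212 (y axis), for tail length in log2(nt + 1) (left, 914 sites) and relative abundance in log2(CPM + 1) (right, 801 sites, 4 of them beyond the axes). Purple points are the 6 proteasome core transcripts and grey points the other sites. For tails all 6 lie below 0 on the y axis, where PSMA4, PSMA7 and PSMB6 turn above 0 with subsample medians subtracted, and PSMA3 is lowest at −0.28, and for abundance PSMA3 lies farthest right at 0.35.

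PSMA3 was thus the member with a called trend in both readouts, but in different libraries: shorter tails with rising PABP1212 and more reads with rising PABPC1. Its tail trend with PABPC1 was −0.06 and its abundance trend with PABP1212 0.21 (0.03 to 0.38, limma adjusted p = 0.0871), and neither difference between the transgenes passed. PSMB4 had the second-steepest estimate in both of these comparisons, and was called for abundance when the transgenes were averaged. PSMB6 had, with PABP1212, the tail trend nearest to 0 of the 6, −0.10, and the highest abundance trend, 0.24, neither of them called.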

How the data were processed

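Per the file headers, each row of the deposited tables is 1 read, with the name of its subsample, a poly(A) site and a tail length in nt. Minimap2, Bowtie2 and hg38 are named in the submitters' processing notes. The sources used here do not give the basecaller or the tail caller. Per the deposited barcode table, a sorted level merges 3 barcodes and an uninduced subsample has 1, and the same adapters mark the same level in both libraries. Only listed subsample names were used, and tails of 0 nt were kept.

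Sites were assigned to the 8 genes by window, and all of these were described. The genes, lists and tests were chosen with earlier results of these data known. Other proteasome genes and sites with like profiles were not named, since no hg19 annotation was used. Tails entered limma 3.58.1 (R 4.3.3) as each site's mean log2(nt + 1), with read numbers as weights, for the 914 sites with at least 10 reads in every subsample. Reads were counted here, scaled by the median ratio over 5662 sites and fitted as log2(CPM + 1) with a variance trend. Terms were the library and, nested in it, sorted against uninduced and the centred level rank. The single uninduced subsamples are taken to vary as the sorted ones do. P-values were adjusted by Benjamini-Hochberg over all sites fitted. The fits were also run on simulated data, with noise drawn independently for each site. No shift common to the sites of a subsample was simulated, so its effect on the calls was not tested there. Alternatives changed the filters, weights, pseudocounts, scale, scaling, short tails, joint fit and subsamples. Other steps used SciPy 1.17.1, Matplotlib 3.10.9, pandas 2.3.3 and NumPy 2.4.6 in Python 3.11.15. RefSeq promoters were not used.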

Additional observations from a re-analysis of the deposited data

Results flagged for a closer look

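Reads outside the comparisons also fell on the proteasome sites. Under a name missing from the barcode table, the PABPC1 library held 49 reads at the 6 sites, with a median tail of 83 nt (95% order-statistic interval 63 to 107), among 15723 such reads (2.86% of the library). The PABP1212 library held 343, with a median of 77 nt (57 to 89), among 111259 (5.63%). Which level these reads come from is not given, and they entered no comparison.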

How the results depend on the processing

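The number of the 6 members with a called PABP1212 tail trend was 1, beside 15.2% of sites. It became 4 without tails of 0 nt (47.7%) or under 10 nt (47.1%) and 5 on mean tails in nt (44.5%). It was 2 without weights (25.3%), on median tails (30.2%) or with a pseudocount of 10 nt (26.04%). It was 0 with subsample medians subtracted (1.09%) or each library fitted alone (9.3%). Leaving out a subsample gave 0 to 6 (1.20% to 72.8%). Over all sites the 139 calls became 433 without tails of 0 nt and 10 with medians subtracted. For the averaged tail trend the count was 0, beside 3.28% of sites. It became 1 without tails of 0 nt (20.5%) or under 10 nt (18.8%) and 4 without weights (40.9%). It was 0 to 6 by leaving out a subsample (0% to 61.7%). For the trend difference it was 0 to 2 by leaving out a subsample (0% to 15.2%). For abundance, the PABPC1 trend count was 1, beside 13% of sites. It became 0 with a mean of 10 reads (2.13%), no filter (0.0222%) or voom weights (3.25%). Leaving out a subsample gave 0 to 2 (0.749% to 28.1%). The PABP1212 count of 0 (22.2%) became 2 fitted alone (33.5%), and 0 to 2 by leaving out a subsample (0.125% to 33.5%). The averaged count of 2 (38.2%) became 1 with a mean of 10 reads (7.36%) or scaling by total reads (31.0%). It was 0 with no filter (0.389%) and 0 to 2 by leaving out a subsample (2.37% to 45.3%). The replacement counts of 0 gave 0 to 1 by leaving out a subsample. They gave 1 for PABP1212 abundance fitted alone (22.8% of sites) or with voom weights (21.0%). Leaving out a subsample, abundance shares over all sites were 17.1% to 34.5% with PABPC1 and 4.49% to 26.3% with PABP1212. For the difference they were 0% to 3.62%, and for tails with PABP1212 0% to 7.22%. The causes were not tested.

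Of 672 alternatives to single-gene trends, 585 kept direction and side of the threshold, 20 lost a call, 45 gained one and 22 turned direction, none of them a called trend. With subsample medians subtracted the tail trends that turned were PSMA4, PSMA7 and PSMB6 with PABP1212 (0.0237, 0.00872 and 0.0236), PSMA3 and PSMB6 with PABPC1 (0.0111 and 0.0149) and PSMB4 and PSMB6 averaged (0.0195 and 0.0193). The PSMB4 PABPC1 tail trend became −0.0514 without tails of 0 nt or under 10 nt and −0.0434 on median tails, and that of PSMB6 0.0127 on median tails. Without the PABPC1 lowest level the PABPC1 tail trends of PSMA3 and PSMB4 were 0.00408 and −0.0356, and the averaged PSMB1 abundance trend was −0.0682. Without the PABPC1 highest level the PABPC1 abundance trends of PSMA4, PSMA7 and PSMB1 were 0.0608, −0.0904 and 0.177, and the averaged PSMA4 trend 0.056. PSMB1 was 0.0433 without the PABPC1 second-lowest and PSMB6 −0.0210 without the second-highest level. Scaling by total reads turned the abundance trends of PSMA7 with PABPC1 (−0.0185) and PSMA4 with PABP1212 (−0.00909). Summing the sites of a window changed nothing, since each gene had 1 site. The labels give 1 sample a transgene, so the groups share 1 replicate number and no analysis paired by replicate was made. The levels that share adapters across the libraries were not fitted as a block.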
